A study of Mus musculus with 11 samples.

Results

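The CCT chaperonin, also called TRiC, was followed through the transcripts of its 8 ring subunits, Tcp1, Cct2, Cct3, Cct4, Cct5, Cct6a, Cct7 and Cct8. The subunits were taken as a named list and matched by gene symbol, and each was read from 1 probe set, the brightest on average of those that carry its symbol alone. All 8 of the 8 were measured, among 22180 genes in all. The measurements were microarray profiles of 720, a T-ALL (T-cell acute lymphoblastic leukaemia) line of the mouse that the labels trace to a Tcf12+/- mouse with a Tal1 transgene under the Lck promoter, so every array carries that background. Cultures received 1 of 3 compounds described as inhibitors of the Runt domain, the DNA-binding part of RUNX transcription factors, for 8 h. There are 3 arrays of AI-7-54 at 100 µM, numbered 1, 3 and 4. AI-8-45 has 4 arrays, at the same 100 µM, and AI-9-54 has 4, at a lower dose of 50 µM. Vehicle-treated cells were not analysed here, so each difference sets a compound against another compound and is not a response to treatment. A gene said to fall, rise or differ after AI-8-45 or AI-9-54 is compared with AI-7-54, and which group changed cannot be told. The labels name a single line and do not say whether replicates were separate cultures, so the p-values rest on the spread among these arrays alone, and that spread may be technical.

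CCT is the chaperonin of the eukaryotic cytosol. Its 8 related subunits sit side by side in a ring, and stacked rings close over an unfolded protein and release it after ATP hydrolysis. Actin and tubulin cannot fold without it, and WD40-repeat proteins such as the mitotic activator CDC20 and the mTOR partner MLST8 are further clients. Around the ring the order of the gene products is Cct3, Cct6a, Cct8, Cct7, Cct5, Cct2, Cct4, Tcp1 and back to Cct3. Each position is filled by its own gene product, and dividing cells carry the complex in quantity.

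The log2 medians of the arrays ran from 6.611 to 6.680. The arrays separated by compound on the first principal component (36.2% of the variance), and on the second (19.6%) replicates 1 and 2 lay apart from replicates 3 and 4 in every group. AI-8-45 replicate 3 stood apart on the third (11.2%). The labels give no batch, so these replicate sets are named by their numbers only. Of 9 measured T-cell markers 0 had a mean below the array medians, against 4 of 5 B-cell and 6 of 8 myeloid markers. Of 2 measured erythroid markers 1 did. The mean of the T-cell list was lower after AI-9-54, at 10.73 to 10.98 on its 4 arrays. It was 11.16 to 11.38 for AI-7-54 and 11.01 to 11.24 for AI-8-45. Between AI-9-54 and AI-7-54 the log2 differences were -1.40 for Dntt, -0.81 for Cd2, -0.53 for Ptcra and -0.50 for Thy1. The other members were Cd3d (0.02), Cd3e (-0.02), Cd3g (-0.09), Lat (-0.05) and Zap70 (-0.04). The part of this list in the results below was not tested. Limma called 4 of the 9 T-cell markers lower between AI-9-54 and AI-7-54 (7.29% of all genes), 2 between AI-9-54 and AI-8-45 (0.600%) and 0 between AI-8-45 and AI-7-54 (3.53%). It called 0 of the 15 B-cell, myeloid and erythroid markers in any comparison, and 0, 2 and 2 had an unadjusted p under 0.05 between AI-8-45 and AI-7-54, AI-9-54 and AI-7-54, and AI-9-54 and AI-8-45. In a bulk array, fewer cells of a kind and less RNA per cell cannot be told apart.

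The CCT subunit transcripts were lower after AI-8-45 and after AI-9-54 than after AI-7-54, and did not separate AI-9-54 from AI-8-45. Between AI-8-45 and AI-7-54, which shared the dose of 100 µM, Cct8, Cct3, Cct6a, Cct7 and Cct5 fell, 5 of 8, where limma called 3.53% of all genes lower at an adjusted p under 0.05. Between AI-9-54 at 50 µM and AI-7-54 at 100 µM the same 5 and Tcp1 fell, 6 of 8, against 7.29% of all genes. All 8 differences were below 0 in both comparisons, so 0 were called higher, against 2.13% and 6.87% of all genes. The sizes were modest, from 1.14-fold to 1.34-fold lower among those called, and the median log2 difference of the 8 subunits was -0.22 and -0.26, beside 0.00 and 0.00 over all genes. All 8 subunits were bright, at percentiles 94.6 to 99.6 of mean level over all genes, while the shares above include dim genes. Among genes above the median level alone, limma called 1688 and 3495 in either direction, against 1255 and 3139 of all 22180. More genes were called there although fewer were tested, so the share called is higher among brighter genes. The shares of 3.53% and 7.29% are therefore not matched to genes as bright as the subunits. A matched share of genes called lower is not given here. Of the subunits, 5 and 7 were called in that setting. Both comparisons use the same AI-7-54 arrays and so are not independent. In the second, compound and dose cannot be told apart.

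**Figure D1:**
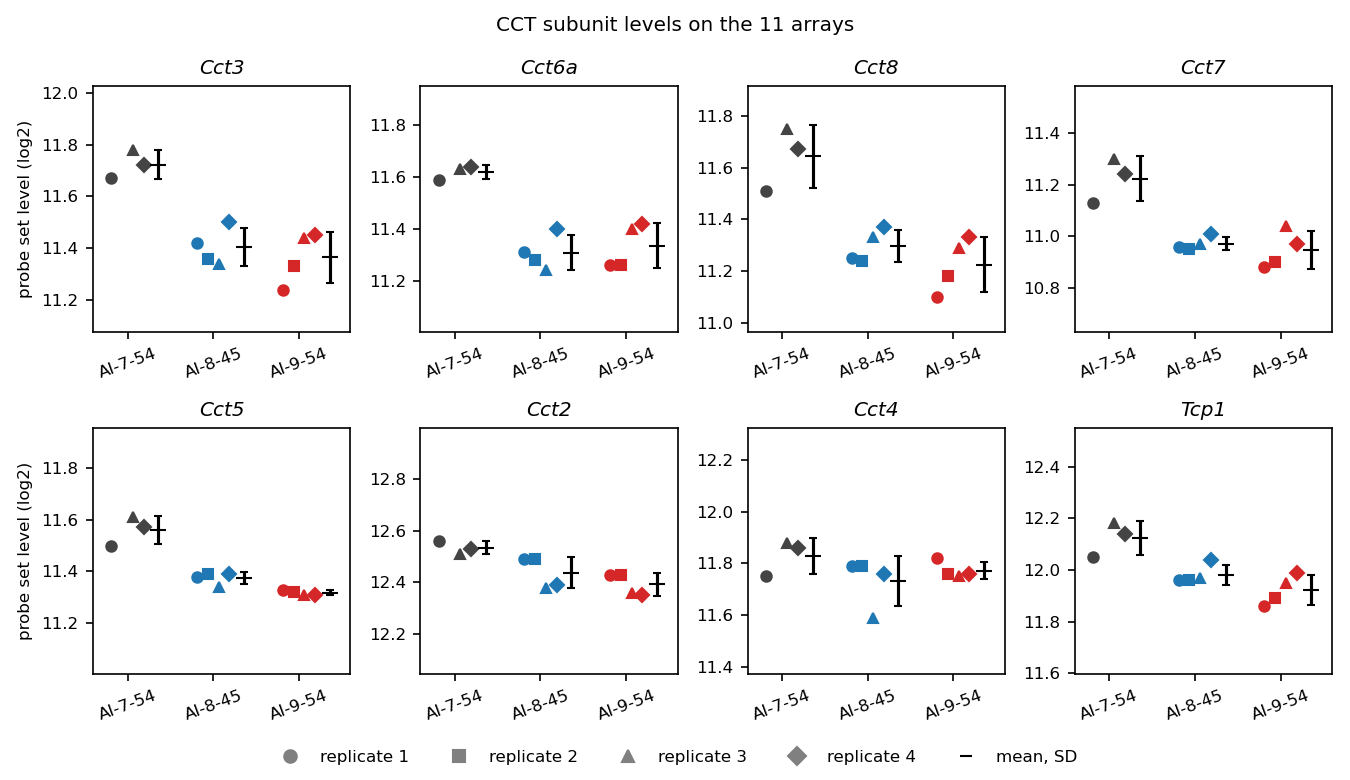
Level of each CCT subunit gene (log2 probe set value, vertical axis) on the 11 arrays by compound, with the marker shape giving the replicate number and the black bar the group mean with its SD. In 7 of the 8 panels every AI-8-45 and AI-9-54 array lies below every AI-7-54 array, and Cct4 is the panel where the groups overlap.

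Promoter windows are shown for 4 subunits to set the genes that moved together beside each other: Cct8 with the largest difference, Cct6a, Cct7, and Cct2, which was not called. The windows run from 250 bases before to 50 after the start in RefSeq on GRCm38.p6, and 7 of the 8 subunits matched an entry. They are Cct8 at chr16:87495820-87496119 on the minus strand, Cct6a at chr5:129787106-129787405 on the plus strand, Cct7 at chr6:85451255-85451554 on the plus strand and, of 2 windows for Cct2, chr10:117063803-117064102 on the minus strand. Capitals mark the GC box GGGCGG and the RUNX letters TGTGGT or TGCGGT, read on both strands.
Cct8: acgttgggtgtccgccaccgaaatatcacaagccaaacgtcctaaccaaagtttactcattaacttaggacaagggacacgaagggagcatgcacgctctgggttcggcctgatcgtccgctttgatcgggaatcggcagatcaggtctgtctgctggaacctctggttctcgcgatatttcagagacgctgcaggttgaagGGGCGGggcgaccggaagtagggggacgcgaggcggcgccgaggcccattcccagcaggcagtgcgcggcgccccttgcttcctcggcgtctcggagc
Cct6a: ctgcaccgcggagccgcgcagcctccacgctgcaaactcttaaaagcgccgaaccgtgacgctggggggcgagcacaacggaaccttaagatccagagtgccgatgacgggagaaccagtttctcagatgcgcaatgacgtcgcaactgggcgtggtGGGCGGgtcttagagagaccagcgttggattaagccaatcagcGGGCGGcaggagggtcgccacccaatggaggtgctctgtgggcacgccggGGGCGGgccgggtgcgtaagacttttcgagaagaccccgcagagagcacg
Cct7: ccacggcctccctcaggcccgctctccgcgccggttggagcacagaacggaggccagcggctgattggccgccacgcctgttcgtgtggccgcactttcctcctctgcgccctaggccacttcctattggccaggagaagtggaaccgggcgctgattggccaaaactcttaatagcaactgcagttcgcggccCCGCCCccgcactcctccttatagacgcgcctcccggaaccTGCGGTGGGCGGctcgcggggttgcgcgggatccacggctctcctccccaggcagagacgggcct
Cct2: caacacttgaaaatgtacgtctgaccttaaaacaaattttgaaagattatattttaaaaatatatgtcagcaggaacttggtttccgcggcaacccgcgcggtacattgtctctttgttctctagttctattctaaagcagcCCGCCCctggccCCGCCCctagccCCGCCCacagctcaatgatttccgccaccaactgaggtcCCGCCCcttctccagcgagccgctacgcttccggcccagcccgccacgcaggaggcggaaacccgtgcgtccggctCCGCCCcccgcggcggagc

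All 7 subunits with a window held a GC box, the letters read by SP-family factors, as did 38.2% of all 27025 genes with a window. RUNX letters stood in 3 of 7 (Tcp1, Cct5 and Cct7), against 25% of all genes, and in the Cct7 window printed above they directly precede a GC box without overlapping it. The CCAAT box CCAAT was found in 4 of 7 (Tcp1, Cct3, Cct6a and Cct7; 41.1% of all genes), and the ETS letters CCGGAAG in 3 of 7 (Tcp1, Cct2 and Cct8; 9.93%). The heat shock letters GAANNTTC or TTCNNGAA were in 3 of 7 (Cct2, Cct5 and Cct6a; 17%), and the NRF1 palindrome in Cct5 alone of the 7 (1.07%). The E-box CACGTG was in 0 of 7 (8.09%). Cct2 and Cct5 have 2 windows each and so more room for a match. These matches are letters in a window and no binding was measured.

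Among the neighbouring subunits Cct3, Cct6a, Cct8 and Cct7, each gene was lower after AI-8-45 and after AI-9-54 than after AI-7-54. Cct8, the theta subunit, read 11.51, 11.75 and 11.67 on the AI-7-54 arrays (replicates 1, 3 and 4), 11.25, 11.24, 11.33 and 11.37 on the AI-8-45 arrays (replicates 1 to 4) and 11.10, 11.18, 11.29 and 11.33 on the AI-9-54 arrays. Every AI-7-54 array was above the other 8, and AI-8-45 and AI-9-54 overlapped. The log2 difference was -0.34 ± 0.07 (SE, 95% interval -0.49 to -0.19) for AI-8-45 against AI-7-54, with a limma adjusted p of 0.0121. For AI-9-54 against AI-7-54 it was -0.42 ± 0.07 (-0.57 to -0.27, adjusted p 0.00144), a 1.34-fold lower level and the largest difference of the 8.

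Cct3, the gamma subunit, read 11.67, 11.78 and 11.72 after AI-7-54, 11.42, 11.36, 11.34 and 11.50 after AI-8-45 and 11.24, 11.33, 11.44 and 11.45 after AI-9-54. The AI-7-54 arrays again stood clear above the rest. The difference was -0.32 ± 0.06 after AI-8-45 (limma adjusted p 0.0086) and -0.36 ± 0.06 after AI-9-54 (adjusted p 0.00157).

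Cct6a, the zeta subunit, read 11.59, 11.63 and 11.64 after AI-7-54, 11.31, 11.28, 11.24 and 11.40 after AI-8-45 and 11.26, 11.26, 11.40 and 11.42 after AI-9-54. The AI-7-54 values were within 0.05 of each other and above all others. The difference was -0.31 ± 0.05 after AI-8-45 (limma adjusted p 0.0058) and -0.29 ± 0.05 after AI-9-54 (adjusted p 0.00393). A second, dimmer probe set of Cct6a gave -0.28 (adjusted p 0.39) and -0.47 (adjusted p 0.0491, limma over all probe sets), in the same direction. With the mean of both probe sets the first difference was -0.30 and no longer called (adjusted p 0.0805).

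Cct7, the eta subunit, read 11.13, 11.30 and 11.24 after AI-7-54, 10.96, 10.95, 10.97 and 11.01 after AI-8-45 and 10.88, 10.90, 11.04 and 10.97 after AI-9-54. The groups of AI-8-45 and AI-9-54 lay below AI-7-54 without overlap. The difference was -0.25 ± 0.05 (limma adjusted p 0.0159) and -0.28 ± 0.05 (adjusted p 0.00369) respectively.

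Cct5, the epsilon subunit, stands next to Cct7 in the ring. Its SD was 0.06, 0.02 and 0.01 after AI-7-54, AI-8-45 and AI-9-54. It read 11.50, 11.61 and 11.57 after AI-7-54, 11.38, 11.39, 11.34 and 11.39 after AI-8-45 and 11.33, 11.32, 11.31 and 11.31 after AI-9-54. The 3 groups did not overlap, in the order AI-7-54, AI-8-45, AI-9-54. The difference from AI-7-54 was -0.19 ± 0.04 for AI-8-45 (limma adjusted p 0.0172, and 0.063 after quantile normalization) and -0.25 ± 0.04 for AI-9-54 (adjusted p 0.0014). The step from AI-8-45 to AI-9-54, -0.06 ± 0.04, was not called (adjusted p 0.619).

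The remaining subunits, Tcp1, Cct2 and Cct4, had the smaller differences. Tcp1, the alpha subunit and the gene for which the family is named, read 12.05, 12.18 and 12.14 after AI-7-54, 11.96, 11.96, 11.97 and 12.04 after AI-8-45 and 11.86, 11.89, 11.95 and 11.99 after AI-9-54. All 8 arrays of the latter groups were below the AI-7-54 arrays, the nearest by a narrow margin. Tcp1 fell after AI-9-54 (-0.20 ± 0.05, limma adjusted p 0.0169). After AI-8-45 the difference of -0.14 ± 0.05 missed the threshold (adjusted p 0.151). A second, dimmer Tcp1 probe set gave -0.18 and -0.28.

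Cct2, the beta subunit, read 12.56, 12.51 and 12.53 after AI-7-54, 12.49, 12.49, 12.38 and 12.39 after AI-8-45 and 12.43, 12.43, 12.36 and 12.35 after AI-9-54. The AI-7-54 arrays were the highest 3. Its differences of -0.10 ± 0.05 (limma adjusted p 0.308) and -0.14 ± 0.05 (adjusted p 0.0604) were not called. With a term for the replicate set (numbers 1 and 2 or numbers 3 and 4) the second was -0.15 and passed (adjusted p 0.0105).

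Cct4, the delta subunit, was the 1 member whose groups overlapped in both comparisons. It read 11.75, 11.88 and 11.86 after AI-7-54, 11.79, 11.79, 11.59 and 11.76 after AI-8-45 and 11.82, 11.76, 11.75 and 11.76 after AI-9-54. AI-8-45 replicate 3, the array that stood apart on the third component, was the lowest of all 11. The difference was -0.10 (95% interval -0.22 to 0.03, limma adjusted p 0.467) and -0.06 (-0.18 to 0.06, adjusted p 0.626). These intervals leave room for a decrease of up to 0.22, so Cct4 is not shown to be unchanged.

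**Figure D2:**
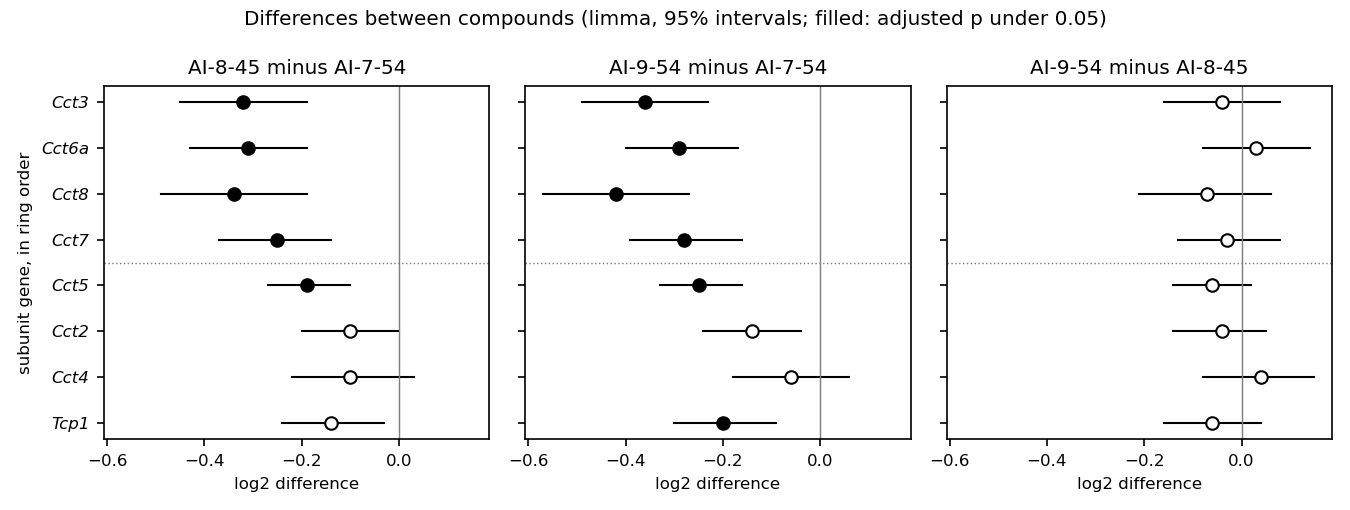
Log2 difference of each CCT subunit gene (horizontal axis, with 95% limma intervals) in the 3 comparisons, with genes in ring order from top to bottom and filled points for an adjusted p under 0.05. Above the dotted line, Cct3, Cct6a, Cct8 and Cct7 are filled in both comparisons with AI-7-54, and no point is filled in the comparison of AI-9-54 with AI-8-45.

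Groups lay apart, with every array lower than every AI-7-54 array, for 7 of 8 subunits in each of these comparisons. Over all genes this was so for 9.07% between AI-8-45 and AI-7-54 and for 12.0% between AI-9-54 and AI-7-54. The subunits differed in how far they moved. The 4 genes with the largest decreases in both comparisons, Cct3, Cct6a, Cct8 and Cct7, are consecutive in the ring, and this grouping was made after the values were seen. The genes with the smallest decreases, Cct2, Tcp1 and Cct4, were also the brightest subunits, at percentiles 99.6, 98.9 and 98.3 of mean level. The other subunits were at 94.6 to 97.2. Any part of brightness in this grouping was not tested. In replicates 3 and 4 alone, between AI-9-54 and AI-7-54, Cct5 (-0.28) lay beyond Cct7 (-0.27) and Cct6a (-0.22). Over all arrays, the mean log2 difference of Cct3, Cct6a, Cct8 and Cct7 was -0.31 after AI-8-45 and -0.34 after AI-9-54. For Cct5, Cct2, Cct4 and Tcp1 it was -0.13 and -0.16. Within an array, the mean of the first 4 less the mean of the last 4 was -0.49 to -0.43 after AI-7-54, -0.70 to -0.57 after AI-8-45 and -0.74 to -0.55 after AI-9-54. Only the change of this quantity between groups can be read, since probe sets differ in brightness. The AI-7-54 arrays lay above all others on it, and no test was made of a grouping chosen this way. For the extremes of the list, Cct8 less Cct4 was -0.24, -0.13 and -0.19 after AI-7-54, -0.55 to -0.26 after AI-8-45 and -0.72 to -0.43 after AI-9-54.

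AI-9-54 at 50 µM and AI-8-45 at 100 µM gave close values for all 8 subunits, at doses that differ. Limma called 0 of 8 in either direction, and 0 of 8 had an unadjusted p under 0.05, where 0.600% of all genes were called lower and 0.708% higher. The differences ran from -0.07 (Cct8) to 0.04 (Cct4), with a median of -0.04 beside 0.00 over all genes. The 95% intervals reached from -0.21 to 0.15 over the 8 genes, so differences inside that range are not excluded. Groups lay apart for 1 of 8, Cct5, against 2.84% of all genes in that direction. Cct4 and Cct6a had differences above 0 (0.04 and 0.03), and their sign changed within replicates 1 and 2 (-0.01 and -0.03).

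The replicate sets bear on these values. For AI-8-45 against AI-7-54 the 8 subunits had a median of -0.14 in the set of replicates 1 and 2, and of -0.26 in the other set. For AI-9-54 against AI-7-54 it was -0.20 and -0.24. In both comparisons 7 of 8 differences were negative in the first set and 8 of 8 in the second, the exception being Cct4 at 0.05 and 0.04 in the first set. That set holds a single AI-7-54 array. With the replicate set in the model 5 and 7 subunits were called, where limma called 1949 and 4036 of all genes. Fitted within replicates 3 and 4 alone 1 and 4 subunits were called, and 613 and 2189 of all genes. Within replicates 1 and 2 only the differences are read here, because of the single AI-7-54 array.

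Several calls were lost when AI-7-54 replicate 3 or 4 was left out. Over all genes the calls between AI-8-45 and AI-7-54 also went from 1255 to 540 and 622. Leaving out AI-7-54 replicate 1 shortens that group equally, yet 5 subunits were still called after AI-8-45 and 6 after AI-9-54. Over all genes 1047 were then called between AI-8-45 and AI-7-54. The calls thus depend on which AI-7-54 array is absent, and the reason was not tested. The differences without replicate 3 were -0.29 for Cct3, -0.29 for Cct8, -0.21 for Cct7 and -0.16 for Cct5. Without AI-7-54 replicate 3 the count called between AI-8-45 and AI-7-54 went from 5 to 1, with Cct6a still called and limma adjusted p of 0.0544 for Cct3, 0.073 for Cct8, 0.091 for Cct7 and 0.095 for Cct5. Without AI-7-54 replicate 4 it was 2, Cct3 and Cct6a. Without either of these arrays Tcp1 also lost its call between AI-9-54 and AI-7-54 (adjusted p 0.0869 and 0.0681). The other 5 genes called in that comparison kept their calls with any 1 of the 11 arrays left out.

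Across the 11 arrays the subunits rose and fell together to different degrees. These correlations describe arrays that share compound groups and replicate sets. Pearson r over the 28 pairs had a median of 0.86 and ran from 0.39 (Cct4 with Cct8) to 0.98 (Tcp1 with Cct8, and Cct7 with Cct8). After each group's mean was taken away, the median over the pairs was 0.43 and r ran from -0.82 to 0.97. Tcp1 and Cct8 then had an r of 0.97, Cct3 and Cct6a 0.91, and Cct7 and Cct8 0.91. Cct4 went with Cct5 (0.81). Cct2 went against most of the others, with an r of -0.82 to Cct8, -0.72 to Tcp1 and -0.66 to Cct7.

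The opposite course of Cct2 can be seen in the replicate sets. After AI-9-54, Cct2 averaged 12.43 in replicates 1 and 2 and 12.36 in replicates 3 and 4, while Cct8 averaged 11.14 and 11.31 and Cct3 11.29 and 11.44. After AI-8-45, Cct2 averaged 12.49 and 12.38, while Cct8 averaged 11.25 and 11.35. The labels do not say what sets replicates 1 and 2 apart from replicates 3 and 4.

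**Figure D3:**
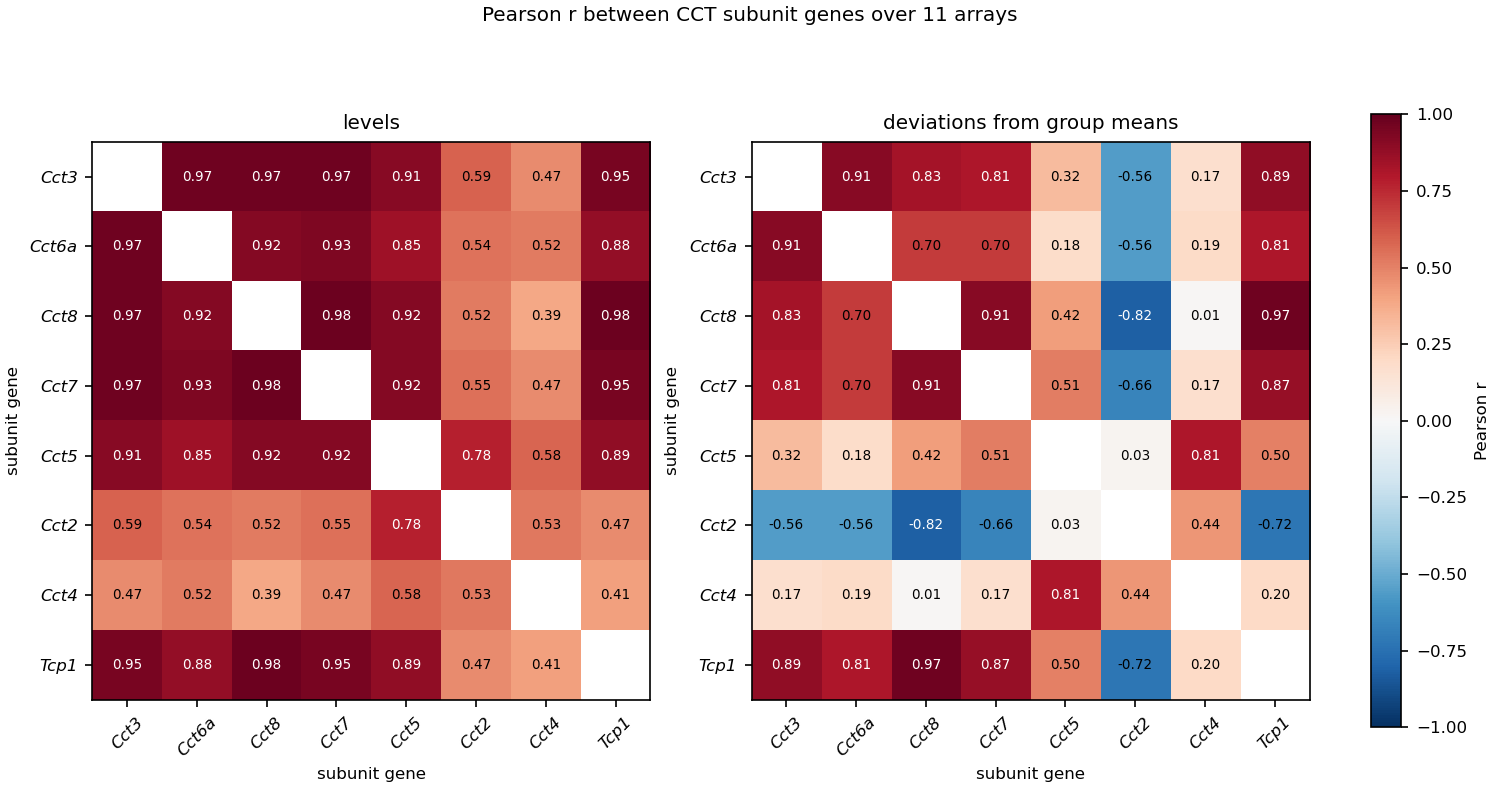
Pearson r between CCT subunit genes over the 11 arrays, from the log2 levels (left) and from deviations from each compound's mean (right), with both axes in ring order and colour from -1 to 1. On the right, Cct2 is negative with Cct8 (-0.82) and Tcp1 (-0.72), and Tcp1 with Cct8 stays at 0.97.

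Outside the complex, the 8 genes whose levels most resembled the mean of the 8 subunits had r of 0.982 to 0.987 over the 11 arrays. They were Cdr2, Ftsj3 (rRNA processing), Pphln1, Dkc1 (the pseudouridine synthase dyskerin), Ddx39a (an RNA helicase), Fh1 (fumarate hydratase), Nup93 (nuclear pore) and Pole2 (a DNA polymerase epsilon subunit). Their log2 differences were -0.58 to -0.22 between AI-8-45 and AI-7-54 and -0.63 to -0.22 between AI-9-54 and AI-7-54. Such a ranking over so many genes and 11 arrays picks out genes with the same group means and is a description.

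Genes adjoining the subunit genes in the RefSeq gene table were measured in 11 cases. Mrpl18, a mitochondrial ribosomal protein gene that overlaps Tcp1, differed by -0.25 (limma adjusted p 0.12) and -0.34 (adjusted p 0.0145) after AI-8-45 and AI-9-54 against AI-7-54. Pradc1, which overlaps Cct7, fell by 0.29 and 0.37 on the log2 scale (adjusted p 0.0476 and 0.00606). The deubiquitinase gene Usp16, which overlaps Cct8, differed by -0.03 and -0.03, and the serine synthesis gene Psph, which overlaps Cct6a, by -0.15 and -0.19, without a call. None of the others (Lrrc10, Glmp, Fam161a, Cmbl, Atpsckmt, Fbxo41 and B130034C11Rik) was called. Where the probes lie within an overlap was not examined, so the values of overlapping genes are uncertain as separate measurements.

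CCT works with helpers that hand over or release its clients. Of 11 measured cofactors, 2 fell after AI-8-45 and 3 after AI-9-54 against AI-7-54 and 0 rose, with median log2 differences of -0.12 and -0.12. The shares of all genes called lower were 3.53% and 7.29%, here and for the lists that follow. The 2 became 0 without AI-7-54 replicate 3, and 1 without AI-7-54 replicate 4 or without AI-8-45 replicate 1, 2 or 3. Pfdn6, a subunit of prefoldin, which delivers unfolded actin and tubulin to the ring, read 10.18 ± 0.10 (SD, n = 3) after AI-7-54, 9.80 ± 0.13 (n = 4) after AI-8-45 and 9.70 ± 0.18 (n = 4) after AI-9-54. It fell by 0.38 and 0.48 on the log2 scale (limma adjusted p 0.0362 and 0.00494). The prefoldin-like gene Uxt fell by 0.21 and 0.31 (adjusted p 0.013 and 0.000445). Pfdn2, another prefoldin subunit, fell after AI-9-54 (-0.32, adjusted p 0.00759), and its -0.25 after AI-8-45 missed the threshold (adjusted p 0.0592).

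Downstream of CCT, tubulin cofactors pair the folded alpha and beta chains. Of 5 measured, 1 fell after AI-8-45 and 3 after AI-9-54, with medians of -0.16 and -0.20 and 0 higher. Without AI-7-54 replicate 3 these counts were 0 and 1, without AI-7-54 replicate 4 the 3 became 1, and without AI-9-54 replicate 3 the 1 became 2. The small GTPase gene Arl2, which acts with the cofactors, fell by 0.25 and 0.28 (limma adjusted p 0.0108 and 0.00184). Tbca and Tbcb, which hold beta and alpha tubulin, fell after AI-9-54 by 0.20 and 0.22 (adjusted p 0.0218 and 0.0442).

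Of 25 measured client genes, 3 fell after AI-8-45 and 4 after AI-9-54 and 0 rose, with medians of -0.10 and -0.07. Without AI-7-54 replicate 3 or 4 both counts were 1. The 4 was 2 without AI-7-54 replicate 1 and 1 without AI-9-54 replicate 1 or 2. With the replicate set in the model it was 9, where limma called 4036 of all genes. The cytoplasmic actin genes Actb and Actg1 fell after AI-9-54 by 0.27 and 0.32 (limma adjusted p 0.0185 and 0.0186). Their differences after AI-8-45, -0.14 and -0.16, were not called (adjusted p 0.333 and 0.371). Over the 6 probe sets of Actg1, the difference after AI-9-54 ran from -0.54 to -0.07 (adjusted p 0.0307 and 0.747, limma over all probe sets). The cyclin E gene Ccne1 fell by 0.37 and 0.18 (adjusted p 0.00189 and 0.04). Actins and tubulins have near-identical relatives, so their probe sets are uncertain as single genes.

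Among other members of the chaperonin family, the mitochondrial chaperonin gene Hspd1 fell by 0.41 and 0.43 (limma adjusted p 0.0306 and 0.0111). It was the 1 gene of 7 called in each comparison with AI-7-54, and 0 of 7 were called in either without AI-7-54 replicate 3 or 4. Between AI-8-45 and AI-7-54, 0 were called without AI-8-45 replicate 1, 2 or 3. Between AI-9-54 and AI-7-54, 2 were called without AI-8-45 replicate 4 or AI-9-54 replicate 1. Hspe1, the partner of Hspd1, was at -0.12 and -0.31 (limma adjusted p 0.687 and 0.075). Cct6b, the paralog of Cct6a known from testis, had group means of 6.17, 6.22 and 6.31 after AI-7-54, AI-8-45 and AI-9-54, below the array medians, and was not called. Of 17 measured genes of the cytosolic HSP70 and HSP90 machinery, 4 fell after AI-8-45 and 6 after AI-9-54, with medians of -0.22 and -0.25 and 0 higher. With the replicate set in the model 8 and 10 of the 17 were called, beside 1949 and 4036 of all genes. Fkbp4, an HSP90 co-chaperone, was at -0.52 and -0.61 and the HSP110-family gene Hspa4 at -0.24 and -0.29, all called. The inducible HSP70 gene Hspa1b differed by -1.95 and -1.48 (limma adjusted p 2.96e-05 and 4.96e-05), larger than any CCT subunit. Hspa1b and Hspa1a are near-identical and uncertain as separate genes. Between AI-9-54 and AI-8-45 limma called 0 of the 65 genes of these 5 lists, and 8 had an unadjusted p under 0.05. With the replicate set in the model 3 client genes were called in that comparison, and 0 genes of the other 4 lists, beside 816 of all genes.

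**Figure D4:**
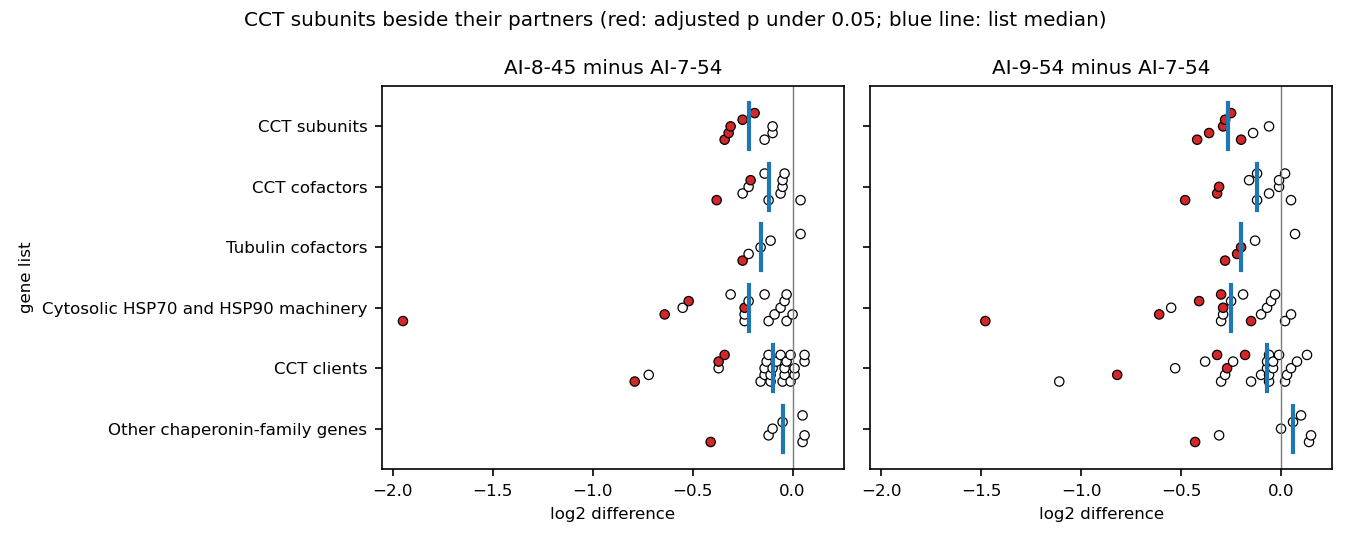
Log2 difference (horizontal axis) of each measured gene in the CCT subunit list and 5 lists of related genes against AI-7-54, for AI-8-45 (left) and AI-9-54 (right), in red where the adjusted p was under 0.05 and with a blue line at the list median. The CCT subunits have 5 and 6 red points of 8 and a narrow range (-0.34 to -0.10 and -0.42 to -0.06), and Hspa1b lies farthest out at -1.95 and -1.48.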

How the data were processed

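RNA was extracted with RNeasy and amplified and labelled for Affymetrix whole-transcript arrays, per the labels' protocols. The authors deposited 1 log2 value per probe set and array, made by RMA, with Partek 6.6 also named per the submitters' processing notes. The array's genome build is not given in the sources used here. RMA quantile-normalizes arrays, so a shift common to all genes is removed, and array fold changes tend to be compressed.

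Of 41345 probe sets, 23521 had 1 gene symbol, 1814 several and 16010 none. The single-symbol probe set with the highest mean stood for each gene (22180 genes, 1082 with several probe sets). Group means of all 3 compounds were fitted in limma 3.58.1 (R 4.3.3), with Benjamini-Hochberg adjustment over all 22180 genes and calls at an adjusted p under 0.05. The small number of arrays sets the precision. The fit code was run on simulated data with independent errors and no replicate sets. Its pass condition covered only changes larger than any subunit difference here, so it does not bear on differences of their size. Figures used Python 3.11.15 and matplotlib 3.10.9. The members and lists were chosen with earlier results of these data known. In each related list, the 3 genes with the smallest adjusted p were named. The 8 genes nearest to the members' mean by Pearson r were also named, with predicted and similar symbols left out. Alternatives covered normalization, dim-probe filters, the choice of probe set, variance settings, array weights, replicate sets, the replicate block and leaving out each array. Promoter letters came from RefSeq on GRCm38.p6, and protein sequences were not used here.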

Additional observations from a re-analysis of the deposited data

Results flagged for a closer look

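In 4 cases 1 array lay far from the other 3 of its group, with a gap that passed Dixon's 95% critical value for 4 samples. The 8 subunits and 15 related genes named in the text were examined in the AI-8-45 and AI-9-54 groups (46 groups of 4), and chance alone marks about 1 in 20 such groups. Tcp1 read 12.04 on AI-8-45 replicate 4, above 11.96 to 11.97 on the others (a gap of 0.923 of the range). Cct5 read 11.34 on AI-8-45 replicate 3, below 11.38 to 11.39 (0.850). Actb read 10.67 on AI-8-45 replicate 2, below 10.75 to 10.77 (0.850). Actg1 read 11.46 on AI-8-45 replicate 3, above 11.34 to 11.36 (0.833). AI-8-45 replicate 3 is the array that stood apart on the third principal component.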

How the results depend on the processing

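Each comparison was recomputed under 24 alternatives. The count of subunits called between AI-8-45 and AI-7-54 (5) was 1 in replicates 3 and 4 alone, and 1 to 5 with 1 array left out. The median, -0.22, was -0.14 in replicates 1 and 2. Between AI-9-54 and AI-7-54 the count (6) was 4 in replicates 3 and 4 alone and 5 to 6 with 1 array left out. Over all genes, the 1255 calls between AI-8-45 and AI-7-54 became 1949 with the replicate set in the model. They were 613 within replicates 3 and 4, and 540 to 1229 with 1 array left out. The 3139 between AI-9-54 and AI-7-54 became 593 in replicates 1 and 2 alone. The 290 between AI-9-54 and AI-8-45 became 816 with the set, 6 and 143 within the sets, 141 with only both groups fitted, and 128 to 257 with 1 array left out. Fits within a set have fewer arrays. Replicates 1 and 2 hold a single AI-7-54 array, so the all-gene count against AI-7-54 there is not weighed. Subunit counts against AI-7-54 in that set are left out for the same reason. Their omission does not mean that subunits were called there. For other changes the cause was not tested.

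Deviations of arrays with the same replicate number correlated at -0.023 to 0.451 (10 pairs), so numbers were not taken as pairs. With the replicate block, 5, 7 and 0 subunits were called in the 3 comparisons, and 517 genes between AI-9-54 and AI-8-45. Client genes called with the block were 7 between AI-9-54 and AI-7-54 (4 without it) and 2 between AI-9-54 and AI-8-45 (0 without it).

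Signs turned only for differences that were not called. Within replicates 1 and 2, Cct4 was 0.05 (AI-8-45 against AI-7-54), 0.04 (AI-9-54 against AI-7-54) and -0.01 (AI-9-54 against AI-8-45). Between AI-9-54 and AI-8-45, Cct6a was -0.03 in replicates 1 and 2 and -0.08 with the mean of its probe sets, and Cct3 and Cct7 were 0.02 and 0.01 in replicates 3 and 4. With 1 array left out there, Cct3 ran from -0.07 to 0.00, Cct4 from -0.01 to 0.06 and Cct6a from 0.00 to 0.06.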
